A study of Mus musculus with 47 samples.

Results

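Rab proteins are small GTPases that give each membrane compartment of a cell its identity. The genes described here are the 59 Rab genes of the mouse gene table, chosen by name as the symbol Rab followed by a number and, in some, a letter, out of 45706 genes. No measured value enters this rule, and no member's symbol stood on more than 1 line. By the compartment on which each protein is best known, 8 members were placed in regulated secretion, 11 in traffic of the endoplasmic reticulum (ER) and Golgi, 8 in the early endosome, 12 in recycling and Golgi-to-surface transport, 7 in the late endosome and lysosome, and 13 in cilia, autophagy and less studied functions.

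Polyadenylated RNA was sequenced from the prefrontal cortex (PFC) and hippocampus of diet-induced obese (DIO) mice that were housed in pairs and weighed 53 g on average. All groups therefore share the obesity, and there was no lean group. The protocol gives daily injections over 5 days of isotonic saline, of mPD5 at 56 mg/kg or of UCCB01-147 at 25 mg/kg, with tissue taken 2 hours after the last injection. From general knowledge of these compounds, mPD5 is taken as the group labelled PICK1i (inhibitor of PICK1, a scaffold protein of glutamate receptor traffic) and UCCB01-147 as the group labelled PSD-95i (inhibitor of PSD-95, the main scaffold of the excitatory postsynapse). The 47 libraries fall into 6 groups, 8 each of saline, PICK1i and PSD-95i in PFC, and 7 of saline, 8 of PICK1i and 8 of PSD-95i in hippocampus. The labels give no strain and no age. The protocol's tissue is the whole hypothalamus and its saline group has 6 mice, unlike the labelled tissues and group sizes, so its doses and times are given here with that doubt. Nothing in the labels says that each library is a separate mouse, so each p-value reflects only the spread among samples, part of which may be technical.

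Total counts per library lay between 5434480 and 12673700 for PFC and between 5378180 and 13139400 for hippocampus. After saline the labelled tissues could be told apart by their markers. Summed cortical layer markers reached 694 to 967 CPM (counts scaled for library size) in PFC after saline and 288 to 392 CPM in hippocampus, and markers of hippocampal subfields reached 462 to 526 CPM in PFC and 962 to 1624 CPM in hippocampus. Apart from this, 5 libraries stood away from the rest of their group in striatal, thalamic or olfactory markers: striatal markers in PFC saline replicate 1, hippocampal saline replicate 1 and hippocampal PICK1i replicate 2, thalamic markers in hippocampal PICK1i replicate 7, and olfactory markers in PFC PICK1i replicate 6. By the same limit 4 hippocampal libraries stood high in markers of the choroid plexus, the secretory tissue that borders the hippocampus: saline replicate 5, PICK1i replicate 8 and PSD-95i replicates 3 and 7. Summed markers of the hypothalamus, the tissue named in the protocol, reached 50.6 CPM in hippocampal PICK1i replicate 6 and at most 5.43 CPM in any other library. With a mean log2 score of 2.05 against a group median of 0.344, replicate 6 stayed under that limit and was not set apart. Counts of called Rab genes are given with and without each set, as are some single differences.

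A Rab protein works as a switch. Guanine nucleotide exchange factors (GEFs) load it with GTP on a membrane, effectors such as tethers, motors and docking proteins bind that active form, GTPase-activating proteins (GAPs) end the signal, and GDP dissociation inhibitor carries the lipid-modified, inactive protein back through the cytosol. In neurons, Rab3 and Rab27 act on synaptic and secretory vesicles, and Rab7 takes cargo to lysosomes, also along axons. Rab5 acts in the uptake of receptors from the postsynaptic membrane, and Rab11 in their return to it. Several members, among them Rab8, Rab10, Rab29 and Rab43, are tied to the kinase LRRK2 of Parkinson's disease.

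Promoter sequence is shown for members whose level differed between the regions (values below), because it gives the reader the DNA just before their start sites. RefSeq's promoter table (GRCm38.p6) held 48 of the 59 members. It held no entry for Rab2a, Rab4a, Rab7b, Rab18, Rab26, Rab27b, Rab30, Rab36, Rab37, Rab38 or Rab44. Printed are the 250 bases before the start for the 3 qualifying members with the largest regional difference, where 6 of 16 qualified by a RefSeq start within 100 bases of the main transcript's start and no exon of the gene inside the window. Capitals mark the GC box GGGCGG and the CCAAT box on either strand. The windows lie at chr9:73044560-73044809 on the plus strand for Rab27a, chrX:48519035-48519284 on the plus strand for Rab33a and chr11:121388252-121388501 on the minus strand for Rab40b, each written 5′ to 3′ on the gene's strand.
Rab27a: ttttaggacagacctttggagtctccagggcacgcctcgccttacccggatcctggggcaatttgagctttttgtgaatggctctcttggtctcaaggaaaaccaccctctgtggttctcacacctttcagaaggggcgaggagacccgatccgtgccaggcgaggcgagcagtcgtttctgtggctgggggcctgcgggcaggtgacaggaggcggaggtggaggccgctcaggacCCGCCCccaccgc
Rab33a: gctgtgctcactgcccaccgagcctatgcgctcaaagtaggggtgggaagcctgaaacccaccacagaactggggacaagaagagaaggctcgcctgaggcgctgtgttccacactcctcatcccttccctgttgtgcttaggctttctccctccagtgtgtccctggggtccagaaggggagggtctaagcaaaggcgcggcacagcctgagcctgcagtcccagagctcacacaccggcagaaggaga
Rab40b: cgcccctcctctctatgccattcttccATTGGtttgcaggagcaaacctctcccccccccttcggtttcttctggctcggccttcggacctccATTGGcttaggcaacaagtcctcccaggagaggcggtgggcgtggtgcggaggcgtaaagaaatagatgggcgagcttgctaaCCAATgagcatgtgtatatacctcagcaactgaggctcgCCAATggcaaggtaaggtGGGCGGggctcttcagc

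The Rab27a window held 1 GC box and 14 CpG, the Rab33a window held neither motif and 7 CpG, and the Rab40b window held 1 GC box, 4 CCAAT boxes and 11 CpG. Across the family the windows were rich in G and C, with a median GC content of 63.2% and a median of 18 CpG, against 52.4% and 6 in all 32851 windows of the table. That table also holds non-coding genes and, for some genes, several windows. The GC box was in 35 of the 48 Rab windows (72.9%) and in 32.7% of all windows. The CCAAT box was in 21 (43.8%, all windows 33.8%), the TATA box TATAAA in 3 (6.25%, all windows 12.4%) and the cAMP response element TGACGTCA in 2 (4.17%, all windows 1.55%), each searched on both strands. The CLEAR element, known as a binding sequence of the lysosomal regulator TFEB, was in the windows of Rab5a and Rab21 (4.17%) and in 0.24% of all windows. These are matches of letters only.

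Levels between members were compared per transcript length, as TPM, a level scaled for transcript length and library size and computed from the estimated transcript counts. After saline the summed level of the family was 5081 ± 248 TPM in PFC (SD, n = 8) and 4847 ± 229 TPM in hippocampus (SD, n = 7), with libraries from 4630 to 5429 TPM and from 4539 to 5207 TPM, so the ranges overlapped. ER and Golgi members held the largest share of this pool, 33.2% ± 0.640 in PFC and 31.7% ± 0.398 in hippocampus. Recycling and Golgi-to-surface members held 20.3% ± 0.391 and 20.4% ± 0.376, and members of regulated secretion 17% ± 0.889 and 16.8% ± 1.39. Late endosomal members made up 11.7% ± 0.361 and 11.7% ± 0.173, early endosomal members 9.32% ± 0.358 and 9.80% ± 0.248, and the ciliary, autophagic and less studied members 8.36% ± 0.268 and 9.50% ± 0.485.

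**Figure D1:**
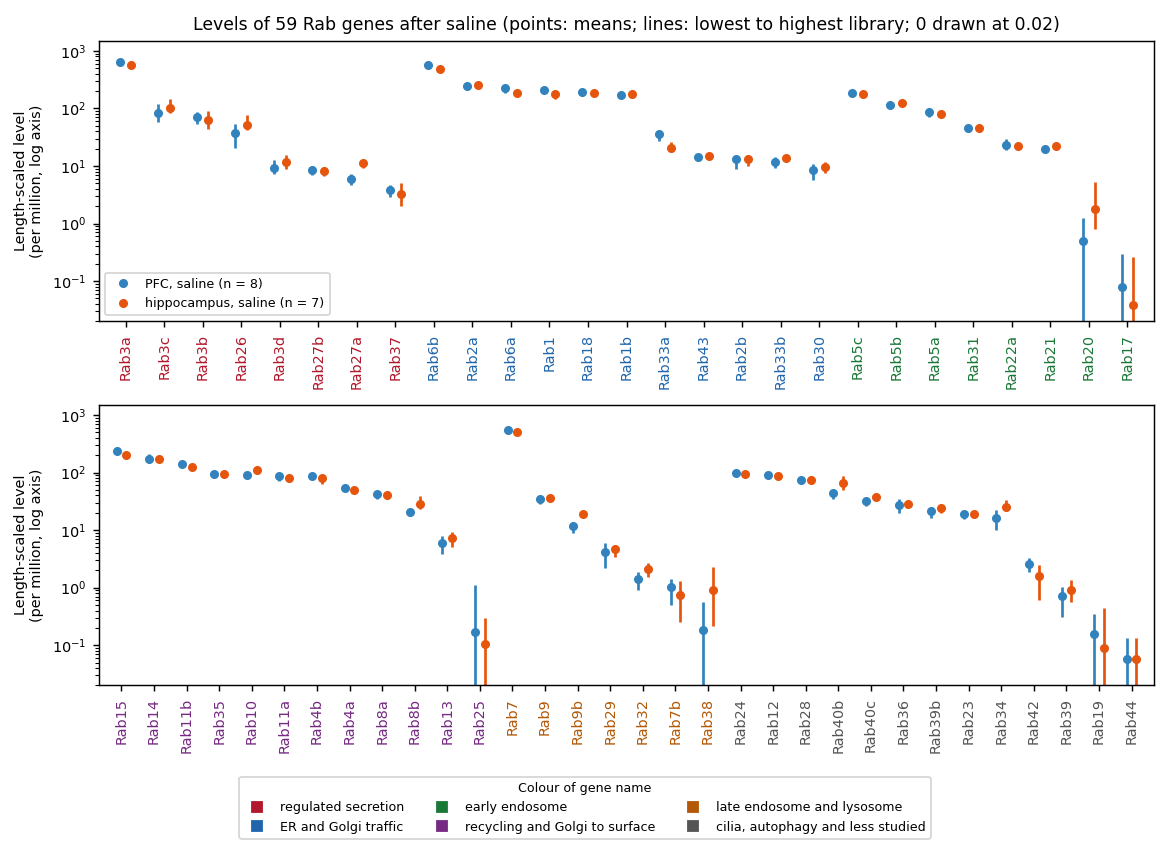
Level of each Rab gene after saline in PFC (n = 8) and hippocampus (n = 7), in TPM on a log axis, with members grouped by role (colour of the gene name) and ordered by their PFC level; points are means, lines span the lowest to the highest library, and a level of 0 is drawn at the foot of the axis. Rab3a, Rab6b and Rab7 stand highest in both regions, at 480 to 645 TPM, and the lowest members lie under 1 TPM.

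Rab3a, Rab6b and Rab7 led in both regions. Rab3a, which works in synaptic vesicle release, had 645 ± 52.4 TPM in PFC, or 12.7% of the pool, and 566 ± 50.3 TPM in hippocampus. Rab6b, the neuronal form of the Golgi protein Rab6, had 568 ± 50.8 and 480 ± 32.3 TPM, and Rab7, which directs late endosomes to lysosomes, had 542 ± 26.4 and 506 ± 22.8 TPM. Neighbours among these 3 overlapped in their libraries, and in PFC every library had more Rab7 than any had of the next member, Rab2a, at 244 ± 18.6 TPM. In hippocampus the gap lay between Rab6b and Rab2a, at 260 ± 9.86 TPM. Rab2a, of ER and Golgi traffic, was followed in PFC by Rab15 of neuronal recycling endosomes at 236 ± 9.79 TPM, Rab6a at 223 ± 20.4, the ER-to-Golgi member Rab1 at 206 ± 15.3, Rab18 of the ER and lipid droplets at 195 ± 16.8, the early endosomal Rab5c at 182 ± 12.3 and Rab14 of the trans-Golgi network at 175 ± 21.5. In hippocampus Rab15 had 199 ± 23, Rab6a 188 ± 11.5, Rab18 184 ± 11.2, Rab1 178 ± 15.5, Rab1b 177 ± 9.05 and Rab5c 176 ± 6.57 TPM. Each of these overlapped its neighbour in the order except Rab2a and Rab15 in hippocampus.

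The lowest members were nearly silent. Rab17, best known from epithelia, was listed at 0 counts in 41 of 47 libraries and at no more than 2 in the others. The epithelial Rab25 was at 0 in 32 libraries, Rab19 and Rab44 in 22 each, with at most 3 counts, Rab38 of melanosomes in 11, Rab20 in 3 and Rab42 in 1. The highest counts of the last 3 were 16, 31 and 14. These 7 fell under the filter on low counts in every fit, as did Rab39 in the fit of PFC and Rab7b in that of hippocampus. This left 51 members tested within each region and 52 between the regions.

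The first comparison asked how the hippocampus differs from PFC in saline-treated animals. Of the 52 members tested, 16 passed edgeR's quasi-likelihood test at an adjusted p under 0.05, 8 higher and 8 lower in hippocampus. That is 30.8%, against 38.3% of all 15658 genes (19.5% higher and 18.8% lower), so the members' share lay near that of genes in general. The members' median log2 difference was -0.01 and their median absolute difference 0.15, against 0.01 and 0.21 for all genes. The libraries of both regions did not overlap at all for 7 members, where 16.3% of all genes had such separate ranges. In pieces of whole tissue, fewer cells of a type and less RNA per cell cannot be told apart. By role, members of ER and Golgi traffic were called after saline as 4 lower and 0 higher of 11 tested. After PICK1i they were 1 higher and 5 lower, and after PSD-95i 1 higher and 4 lower. Of all genes, 18.5% were called higher and 18.3% lower after PICK1i, and 23.1% and 21.9% after PSD-95i. The counts by role were not tested against the shares of all genes. The ciliary, autophagic and less studied members were called higher in 3 of 10 and lower in 0 after saline. They were 3 and 0 after PICK1i, and 4 and 1 after PSD-95i. After saline, regulated secretion had 1 higher and 1 lower of 8 and the early endosome 0 and 1 of 6. Recycling and surface transport had 2 and 1 of 11, and the late endosome 2 and 1 of 6.

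**Figure D2:**
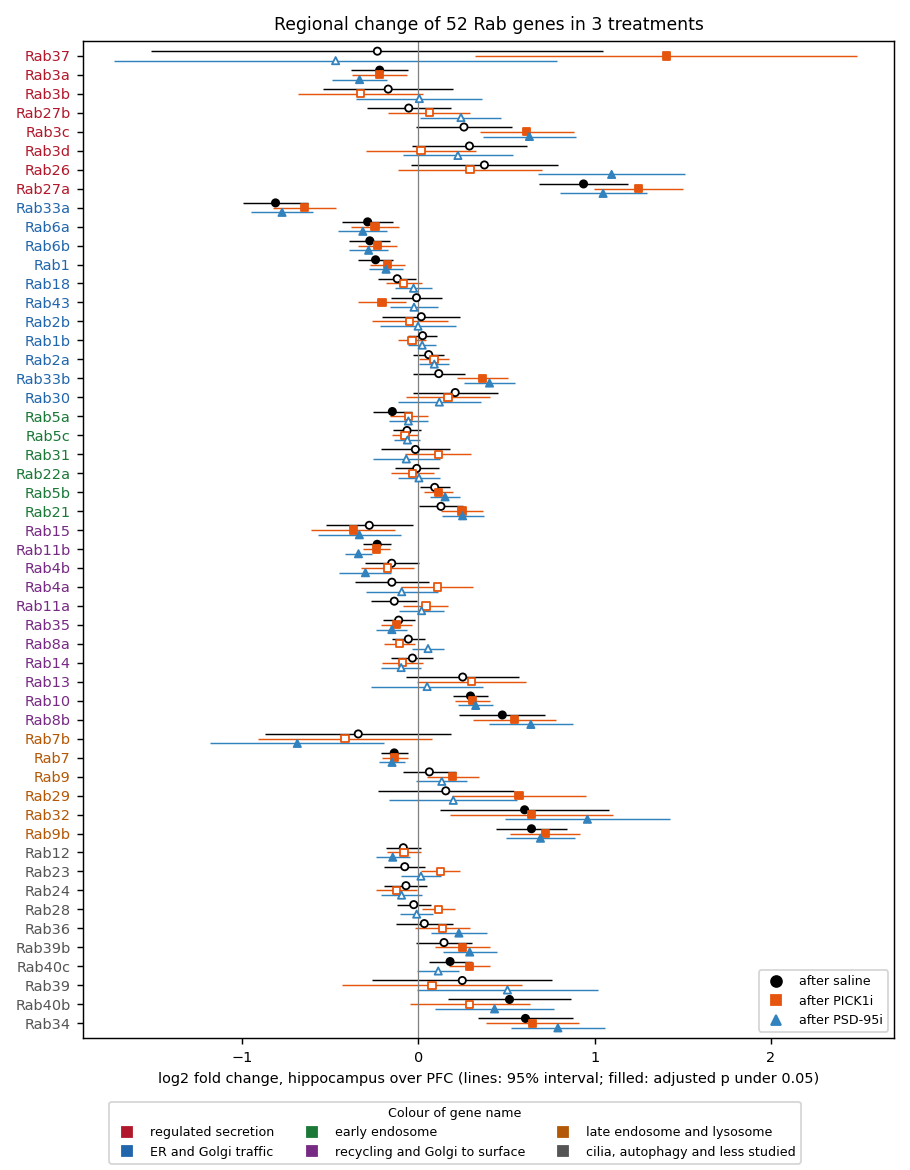
Log2 difference of hippocampus against PFC for the 52 Rab genes tested, after saline (circles), PICK1i (squares) and PSD-95i (triangles), with members grouped by role (colour of the gene name); symbols are estimates of the edgeR fit, lines are 95% intervals and filled symbols passed an adjusted p of 0.05. After saline, Rab27a (0.94), Rab9b (0.64) and Rab34 (0.61) lie farthest to the higher side and Rab33a (-0.81) farthest to the lower side.

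In the following, CPM are scaled to each library's TMM-adjusted total, positions are those of GENCODE on GRCm38, and each adjusted p is from edgeR's quasi-likelihood test with Benjamini-Hochberg adjustment over all genes. Among the members of regulated secretion, Rab27a was the most changed gene of the family. Rab27a (chromosome 9, 73044854 to 73097629, plus strand) docks secretory vesicles at the plasma membrane. Its lowest, median and highest library had 4.50, 5.73 and 7.15 CPM in PFC and 9.91, 11.4 and 12.3 CPM in hippocampus, so every hippocampal library was above every PFC library. The level was 1.91-fold higher in hippocampus (log2 0.94, SE 0.13, adjusted p = 8.82e-08). Some exons of Rab27a overlap the predicted gene Gm27186 on the same strand. The most abundant member, Rab3a (chromosome 8, 70754679 to 70758677, plus strand), differed the other way and by less. It had 376, 399 and 457 CPM in PFC and 320, 350 and 412 CPM in hippocampus, and the ranges overlapped. The fitted level was lower in hippocampus (log2 -0.22, SE 0.0827, adjusted p = 0.031), and the call was lost without PFC saline replicate 7 or without hippocampal saline replicate 1 or 5, with adjusted p up to 0.054.

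All 4 members of ER and Golgi traffic called after saline were lower in hippocampus. Rab33a (chromosome X, 48519285 to 48530232, plus strand), a Golgi member that also rides on vesicles moving into axons, had 15.8, 19.7 and 23.1 CPM in PFC and 9.52, 11 and 14 CPM in hippocampus. The ranges did not meet, and the level was 0.57 times that of PFC (log2 -0.81, SE 0.0933, adjusted p = 1.12e-09). Rab6b (chromosome 9, 103111787 to 103185276, plus strand) had 1257, 1313 and 1472 CPM in PFC and 1010, 1140 and 1192 CPM in hippocampus, again without overlap. It fell by 0.28 on the log2 scale (SE 0.0594, adjusted p = 0.000195). The widely expressed Rab6a (chromosome 7, 100607410 to 100641268, plus strand) had 247, 289 and 317 CPM in PFC and 212, 238 and 253 CPM in hippocampus. Its libraries overlapped slightly, and the log2 difference was -0.29 (SE 0.073, adjusted p = 0.00137), close to that of Rab6b. Rab1 (chromosome 11, 20201432 to 20226856, plus strand), the gene of the ER-to-Golgi protein Rab1a, had 181, 207 and 227 CPM in PFC and 154, 174 and 187 CPM in hippocampus, a log2 difference of -0.24 (SE 0.0517, adjusted p = 0.000163). Only the top of the hippocampal range reached the bottom of the PFC range.

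In the early endosome, 1 member was called. Rab5a (chromosome 17, 53479234 to 53507680, plus strand), which drives fusion of early endosomes, had 84.3, 99.7 and 109 CPM in PFC and 82.5, 89.0 and 103 CPM in hippocampus. The ranges overlapped over most of their length. The fitted difference was -0.15 on the log2 scale (SE 0.0573, adjusted p = 0.0365). This call was lost with another filter on low counts (adjusted p = 0.0737), with only these groups in the fit (0.0605), and without PFC saline replicate 1, 2 or 8 or hippocampal saline replicate 3, 5 or 7. Its relatives Rab5b and Rab5c had log2 differences of 0.09 and -0.06 and were not called.

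Recycling and Golgi-to-surface transport held called members in both directions. Rab10 (chromosome 12, 3247428 to 3309969, minus strand) delivers transporters and membrane to the cell surface and supports axon growth. It had 144, 149 and 163 CPM in PFC and 168, 184 and 215 CPM in hippocampus, without overlap, and was 1.23-fold higher in hippocampus (log2 0.30, SE 0.0518, adjusted p = 8.65e-06). Rab8b (chromosome 9, 66843664 to 66919687, minus strand), of Golgi-to-surface vesicles, had 41.5, 45.6 and 51.9 CPM in PFC and 51.6, 61.8 and 85.5 CPM in hippocampus. The ranges touched only at their edges, and the level was 1.39-fold higher (log2 0.48, SE 0.124, adjusted p = 0.00193). Rab11b (chromosome 17, 33742484 to 33760530, minus strand), of the recycling endosome, moved the other way, with 168, 182 and 186 CPM in PFC and 142, 154 and 163 CPM in hippocampus. The ranges were separate and the log2 difference was -0.23 (SE 0.0412, adjusted p = 9.04e-06). Rab15 had separate ranges too, 291 to 313 CPM in PFC and 206 to 287 CPM in hippocampus, but its difference of -0.28 did not pass the test.

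In the late endosome and lysosome, Rab9b stood out by size. Rab9b (chromosome X, 136858147 to 136868755, minus strand) is a relative of Rab9, which returns receptors from late endosomes to the Golgi. It had 17.6, 22.3 and 26.9 CPM in PFC and 31.5, 34.2 and 38.5 CPM in hippocampus, with no overlap, and was 1.56-fold higher (log2 0.64, SE 0.103, adjusted p = 1.74e-06). Rab7 (chromosome 6, 87999106 to 88045270, minus strand) had 378, 413 and 441 CPM in PFC and 359, 372 and 397 CPM in hippocampus, which overlapped. It was lower by a small margin (log2 -0.14, SE 0.0395, adjusted p = 0.00462). Rab32 (chromosome 10, 10545002 to 10558265, minus strand), of lysosome-related organelles, was near the bottom of the tested range, with 0.97, 1.46 and 2.01 CPM in PFC and 1.58, 2.13 and 2.67 CPM in hippocampus. The ranges overlapped, and the log2 difference was 0.60 (SE 0.246, adjusted p = 0.0477). That call was lost when 1 library was left out in 27 of 47 cases, with adjusted p up to 0.106.

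The 3 members of the last set called after saline were all higher in hippocampus. Rab34 (chromosome 11, 78188430 to 78192193, plus strand), needed for primary cilia, had 4.75, 7.68 and 11.3 CPM in PFC and 10.1, 11.6 and 15.1 CPM in hippocampus. The ranges met only at their edges, and the level was 1.52-fold higher (log2 0.61, SE 0.138, adjusted p = 0.000395). Rab40b (chromosome 11, 121356125 to 121388251, minus strand), which recruits a ubiquitin ligase, had 25.0, 29.9 and 33 CPM in PFC and 32, 39.5 and 51.9 CPM in hippocampus, and was 1.43-fold higher (log2 0.52, SE 0.177, adjusted p = 0.0177). Its relative Rab40c (chromosome 17, 25882114 to 25919727, minus strand) had 23.2, 26.4 and 31 CPM in PFC and 27.5, 30.1 and 33.3 CPM in hippocampus. Rab40c overlapped for most libraries, with a log2 difference of 0.18 (SE 0.0624, adjusted p = 0.0192), and was no longer called without PFC saline replicate 3 or 6 or hippocampal saline replicate 4 (adjusted p up to 0.067).

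**Figure D3:**
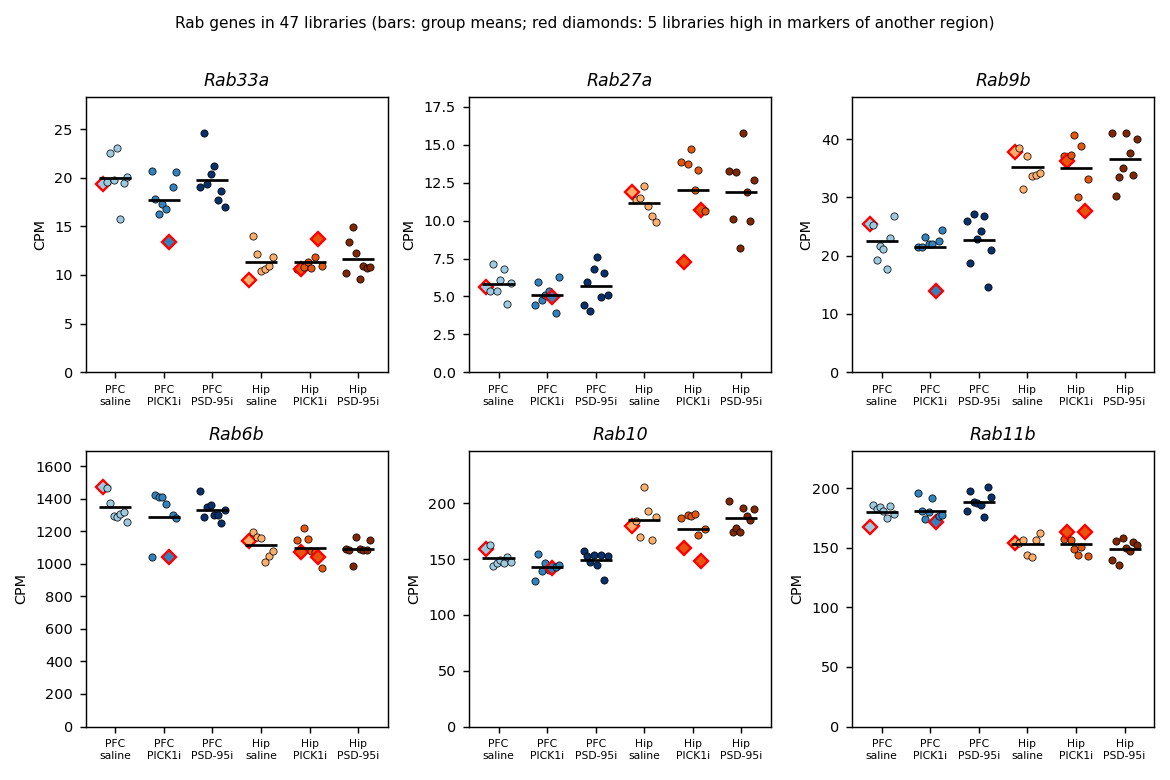
CPM of Rab33a, Rab27a, Rab9b, Rab6b, Rab10 and Rab11b in every library of PFC and hippocampus after saline, PICK1i and PSD-95i, 1 panel per gene with its own axis from 0; points are libraries, bars are group means and red diamonds mark the 5 libraries that stood apart in regional markers. For Rab27a, Rab9b and Rab11b the libraries of both regions do not overlap under any of the 3 treatments.

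Close relatives were compared within each library by the log2 ratio of their TPM, as a description without a test. Of 19 such pairs, 3 had ratios that did not overlap between the regions. After saline Rab33a stood over its relative Rab33b by 1.19 to 1.96 in PFC and by 0.37 to 0.98 in hippocampus. The ratio of Rab8a to Rab8b was 0.94 to 1.27 in PFC and 0.06 to 0.79 in hippocampus, and that of Rab9 to Rab9b was 1.42 to 2.08 and 0.74 to 1.11. In each of these pairs the shift after saline came with 1 called member, Rab33a, Rab8b or Rab9b, while the other was not called. For Rab27a over Rab27b the ratio was -0.90 to 0.08 in PFC, against -0.09 to 0.84 in hippocampus, so it was mostly below 0 in the first and mostly above 0 in the second. Rab6a and Rab6b kept nearly the same ratio, -1.51 to -1.08 in PFC and -1.50 to -1.27 in hippocampus.

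The same comparison could be made in separate libraries after each inhibitor. After PICK1i, 25 of 52 members were called, 15 higher and 10 lower (36.8% of all genes called), with separate ranges for 3 (6.21% of all genes), and after PSD-95i 26, of which 14 were higher and 12 lower (45% of all genes called), with separate ranges for 11 (18.7% of all genes). Under all 3 treatments 13 members were called in the same direction, 25% of those tested and close to the 26.9% of all genes. The 6 that were higher in hippocampus each time were Rab27a, Rab9b, Rab34, Rab32, Rab8b and Rab10, and the 7 that were lower were Rab33a, Rab6a, Rab6b, Rab1, Rab11b, Rab3a and Rab7. The log2 difference of Rab27a was 0.94 with saline, 1.25 with PICK1i and 1.05 with PSD-95i. Rab33a had -0.81, -0.65 and -0.77, and Rab9b had 0.64, 0.72 and 0.69. The sign was the same under all 3 treatments for 40 of the 52 members, a count not made for all genes.

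Some members were called after both inhibitors and not after saline. They were Rab15, Rab35, Rab5b, Rab21, Rab39b, Rab33b and Rab3c, of which the last 2 are given with values. Rab3c, a synaptic vesicle relative of Rab3a, had log2 differences of 0.26, 0.62 and 0.63 in the order saline, PICK1i and PSD-95i. Rab33b, of the Golgi and of autophagosomes, had 0.12, 0.36 and 0.40. Rab26, linked to secretory granules and to autophagy of synaptic vesicles, was called only after PSD-95i, with 0.37, 0.29 and 1.10. Being called under 1 treatment and not another is no difference between treatments, and the tests of that difference are given with the inhibitors. Rab37, a member of secretory granules, was called higher after PICK1i alone (log2 1.41, adjusted p = 0.0415), and this rested on 1 library. Without hippocampal PICK1i replicate 7 its difference was -0.49 (adjusted p = 0.246), and without all 5 libraries that stood apart it was 0.23 (adjusted p = 0.478).

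Without those 5 libraries, a setting added after the data were seen, 22 members were called after saline (40.9% of all genes). They included the same 16 in the same direction, and Rab3d, Rab21, Rab15, Rab3c, Rab35 and Rab26 were added. After PICK1i 26 were called (42.9% of all genes), 22 of them shared with the full set, and Rab29, Rab9 and Rab37 were lost. After PSD-95i 27 were called (49.6% of all genes), 26 of them shared. Without the 4 libraries high in choroid plexus markers, also added later, 13 members were called after saline (34.7% of all genes), all among the 16, and Rab3a, Rab5a and Rab32 were lost, with adjusted p of 0.0524, 0.0844 and 0.0786 in edgeR. After PICK1i 24 were then called (34% of all genes), 23 of them shared, and after PSD-95i 25 (40.4% of all genes), all shared. With only the 2 groups compared in the fit, the count after PICK1i was 14 of 50, 9 higher and 5 lower, and the share of all genes called was also lower, at 26.7%.

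Markers of other cell types also moved between the regions. After saline, 10 oligodendrocyte markers summed to 1892 to 3550 CPM in PFC and 3172 to 7387 CPM in hippocampus, and 5 markers of their precursors to 112 to 154 and 169 to 198 CPM. Markers of the choroid plexus summed to 2 to 12 CPM in PFC and to 90 to 309 CPM in 6 of the 7 hippocampal libraries, with 5601 CPM in saline replicate 5. Microglial markers overlapped, at 211 to 278 and 251 to 283 CPM, as did those of interneurons, at 772 to 866 and 605 to 851 CPM, and of astrocytes, at 3488 to 4480 and 4148 to 4683 CPM. Endothelial and pericyte markers were at 327 to 440 CPM in PFC and at 290 to 328 CPM in hippocampus. Their part in the regional differences of the Rab genes was not tested.

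The proteins that switch, carry and read the Rabs were followed in the same comparison. Of 120 listed genes, 119 were found in the table and 116 tested, and 58 (50%) were called after saline, 25 higher and 33 lower in hippocampus, beside 38.3% of all genes. Among the exchange factors 10 were higher and 7 lower of 30. St5, a DENN-domain exchange factor, had 8.19 ± 0.789 CPM in PFC (SD, n = 8) and 18.9 ± 2.22 CPM in hippocampus (SD, n = 7), and its log2 difference was 1.20 (SE 0.132, adjusted p = 3.75e-10 in edgeR). Dennd3, an exchange factor for Rab12, had 10.2 ± 1.37 and 6.40 ± 1.73 CPM and a log2 difference of -0.68 (SE 0.137, adjusted p = 8.21e-05).

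Among the GTPase-activating proteins 8 were higher and 9 lower of 34. Tbc1d30 had 181 ± 28 CPM in PFC and 71.7 ± 7.83 CPM in hippocampus, a log2 difference of -1.34 (SE 0.095, adjusted p = 1.5e-15 in edgeR). Tbc1d8b had 4.57 ± 0.822 and 14.6 ± 3.35 CPM, a difference of 1.67 (SE 0.241, adjusted p = 2.3e-07). Of 41 effectors 7 were higher and 12 lower. The granule docking protein Sytl4 was low in both regions, with 0.259 ± 0.127 CPM in PFC and 1.21 ± 0.507 CPM in hippocampus (log2 2.14, SE 0.491, adjusted p = 0.00044), and its relative Sytl1 had 2.11 ± 0.789 and 0.614 ± 0.569 CPM (log2 -1.73, SE 0.417, adjusted p = 0.000797).

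Of 8 genes for prenylation and the membrane cycle, 3 were lower and 0 higher in hippocampus. They included Chml, a Rab escort protein, with 11.1 ± 2.17 CPM in PFC and 5.54 ± 1.08 CPM in hippocampus (log2 -1.01, SE 0.244, adjusted p = 0.00088 in edgeR). Lrrk2, the kinase that phosphorylates several Rab proteins, had 27.8 ± 3.88 CPM in PFC and 15.6 ± 6.85 CPM in hippocampus (log2 -0.85, SE 0.204, adjusted p = 0.000819), and its difference was -1.10 without the 5 libraries that stood apart. Ppm1h, the phosphatase that removes these phosphates, was also lower, by a smaller margin (log2 -0.22, SE 0.0763, adjusted p = 0.0187). After PICK1i 47 of the 116 regulators (40.5%) and after PSD-95i 71 (61.2%) differed between the regions, beside 36.8% and 45% of all genes.

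Transcript usage, the share of a gene's counts that each of its transcripts takes, was tested for 129 transcripts of 35 members with edgeR's diffSpliceDGE. After saline 0 of the 129 differed between the regions, against 60 of 32334 transcripts in all (0.186%), and 1 had an unadjusted p under 0.05. limma's diffSplice also called 0, with 7 at an unadjusted p under 0.05. The smallest p belonged to Rab40c-201, a coding transcript with 4.86% ± 1.70 of the counts of Rab40c in PFC and 3.10% ± 1.02 in hippocampus (adjusted p = 1.0 in diffSpliceDGE). Rab34-202, also coding, had 19.3% ± 6.35 and 13.4% ± 4.14, Rab1a-204 without a coding frame 0.505% ± 0.205 and 0.323% ± 0.136, Rab36-206 7.50% ± 2.87 and 9.88% ± 2.04, and Rab14-208 with a retained intron 1.43% ± 0.312 and 1.80% ± 0.284. In Rab34-202, Rab1a-204 and Rab36-206 the SD in PFC exceeded the difference of the means. After PICK1i 0 Rab transcripts were called (0.136% of all), with 3 at an unadjusted p under 0.05. After PSD-95i 1 was called (0.52% of all). It was Rab1a-203, a coding transcript, named after its value was seen, which took 1.41 to 4.72% of Rab1 counts in PFC and 1.55 to 2.85% in hippocampus, with medians of 2.81% and 1.74% (relative log2 -0.45, adjusted p = 0.0306).

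The inhibitors were then compared with saline, and with each other, within each region. Each inhibitor was set against the same saline libraries, so these comparisons share their controls. In PFC 0 of 51 members were called after PICK1i (0.201% of all genes called), 0 after PSD-95i (0% of all genes) and 0 between the inhibitors (0.335% of all genes). In hippocampus 0 of 51 were called in each comparison, as were 0% of all genes. limma-voom and DESeq2 called 0 members as well in all 6 comparisons. Members with an unadjusted p under 0.05 in edgeR numbered, for PICK1i, PSD-95i and the inhibitors against each other, 4, 2 and 5 in PFC, and 4, 0 and 4 in hippocampus. Of all genes, 5.71%, 6.34% and 9.6% had such a p in PFC, and 3.85%, 1.53% and 4.88% in hippocampus. A p that misses the threshold does not show equal levels, and the intervals, which are approximate, state what was left. The 95% interval lay within 0.5 of 0 on the log2 scale for 47, 46 and 46 members in PFC and for 44, 44 and 45 in hippocampus. This count was not made for all genes. Of the regulators, 110 tested in PFC and 114 in hippocampus, 0 were called in any of the 6 comparisons.

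**Figure D4:**
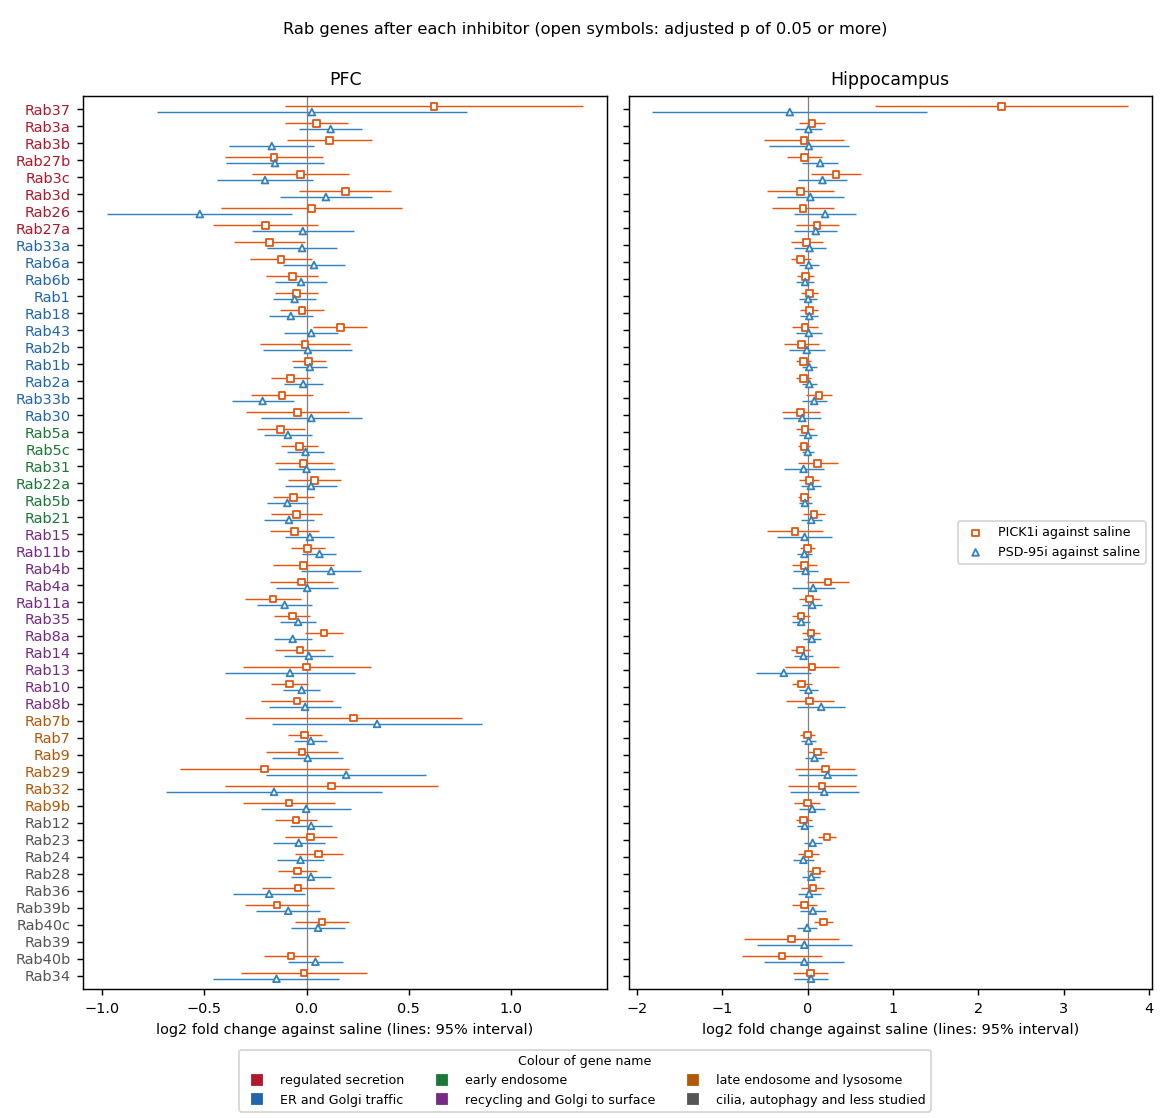
Log2 difference of PICK1i (squares) and PSD-95i (triangles) from saline in PFC and in hippocampus for the 51 Rab genes tested in each region, with approximate 95% intervals computed from the edgeR test; both inhibitors are set against the same saline libraries and the panels have different horizontal scales. No symbol is filled, since no member passed an adjusted p of 0.05, and the widest interval in each panel is that of Rab37.

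The members nearest to a call in PFC showed small differences with overlapping libraries. Rab33b had a lowest, median and highest library of 15.2, 16.6 and 20.4 CPM after saline and of 14.2, 14.8 and 16.1 CPM after PSD-95i (log2 -0.22, SE 0.0775, adjusted p = 0.651 in edgeR). Rab26 had 11.8, 21.6 and 31.9 CPM after saline and 7.89, 14.4 and 29.8 CPM after PSD-95i (log2 -0.52, SE 0.231, adjusted p = 0.72). On the positive side the smallest p belonged to Rab4b (0.12, SE 0.0752) and Rab3a (0.12, SE 0.0788), the latter 0.06 without PFC PSD-95i replicate 8. After PICK1i, Rab43, a Golgi member, had 21.8, 22.7 and 28.3 CPM with saline and 23.2, 26.3 and 28.7 CPM with the inhibitor (log2 0.16, SE 0.0678, adjusted p = 0.767). Rab11a of the recycling endosome had 50.4, 56.1 and 63.1 CPM and 42.3, 52.1 and 59.4 CPM (log2 -0.16, SE 0.0693, adjusted p = 0.793). Without the 5 libraries that stood apart its difference was -0.10. The next in each direction were Rab8a (0.09, SE 0.0478) and Rab5a (-0.13, SE 0.0608).

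Between the inhibitors in PFC, the smallest p was that of Rab8a, which serves Golgi-to-surface and ciliary traffic. Its libraries had 47.4 to 53.9 CPM after PICK1i (mean 50.4 ± 2.35) and 39.5 to 47.6 CPM after PSD-95i (45.3 ± 2.64, SD, n = 8 each), so the ranges met only at their edges. The log2 difference was -0.15 (SE 0.048), and its adjusted p of 0.238 in edgeR was the smallest of any Rab gene in a drug comparison. Rab3b, a vesicle relative of Rab3a, had 49.7, 66.8 and 93.4 CPM after PICK1i and 44.6, 54.3 and 68.3 CPM after PSD-95i (log2 -0.28, SE 0.106, adjusted p = 0.36). The 93.4 CPM was that of PICK1i replicate 6. With single libraries left out, the difference of Rab3b ran from -0.33 to -0.19. Rab6a (0.16, SE 0.077) and Rab29 (0.40, SE 0.209) had the smallest p among the positive differences, and that of Rab6a was 0.10 without PFC PICK1i replicate 6.

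In hippocampus the smallest unadjusted p after PICK1i was that of Rab23, a regulator of Hedgehog signalling at the cilium. It had 23, 23.6 and 26.6 CPM after saline and 26, 28.4 and 31.1 CPM after PICK1i, nearly without overlap. The log2 difference was 0.23 (SE 0.0538), and its adjusted p over all genes was 0.956 in edgeR. Rab40c had 27.5, 30.1 and 33.3 CPM after saline and 30.7, 33.6 and 42 CPM after PICK1i (log2 0.19, SE 0.0574, adjusted p = 0.956). The 42 CPM was that of PICK1i replicate 7. With single libraries left out, the difference of Rab40c ran from 0.14 to 0.21. On the negative side stood Rab14 (-0.09, SE 0.0573) and Rab35 (-0.08, SE 0.0524), at -0.05 and -0.04 without PICK1i replicate 7. After PSD-95i the smallest p belonged to Rab27b (0.15, SE 0.106), Rab9 (0.08, SE 0.0568), Rab13 (-0.28, SE 0.165) and Rab35 (-0.07, SE 0.0525), each with an adjusted p of 1.0. Between the inhibitors Rab27b (0.19, SE 0.102), Rab6a (0.10, SE 0.0571) and Rab40c (-0.20, SE 0.0553) had adjusted p of 0.90. Without the 5 libraries the first was 0.10 and the second 0.04. That of Rab40c ran from -0.22 to -0.15 with single libraries left out.

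Whether an inhibitor's effect differed between hippocampus and PFC was tested as an interaction over all 6 groups. For PICK1i 0 of 52 members were called (0.00639% of all genes), with 3 at an unadjusted p under 0.05 in edgeR, and for PSD-95i 0 (0% of all genes), with 2. Of all genes, 3.86% and 2.73% had such a p. DESeq2 and limma-voom called 0 for both. For PSD-95i the smallest p were those of Rab33b (0.29, SE 0.105, adjusted p = 1.0 in edgeR) and Rab26 (0.72, SE 0.301, adjusted p = 1.0). For PICK1i they were those of Rab23 (0.20, SE 0.0818) and again Rab33b (0.25, SE 0.105), the latter 0.16 without the 5 libraries. For 40 and 38 of the 52 members the 95% interval of the interaction lay within 0.5 of 0 on the log2 scale.

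Of the libraries that stood apart in regional markers, 2 differed most from their groups in Rab genes as well. In hippocampal PICK1i replicate 7, summed thalamic markers reached 1696 CPM against 66.7 to 201 CPM in the others, and markers of hippocampal subfields reached 307 CPM against a group median of 1259 CPM. Its subfield markers lay below those of every PFC library, the lowest of which had 438 CPM, after PSD-95i. Subfield markers thus did not set replicate 7 above PFC, but other markers told it from PFC. Its thalamic markers lay above those of every PFC library, which had at most 152 CPM. Its cortical layer markers, at 275 CPM, lay below those of every PFC library, which had at least 653 CPM. In replicate 7, 21 of the 52 tested members lay above and 23 below all others of the group, 84.6% outside the rest, as did 64.1% of all genes. Rab37 had 105 CPM there and 2.47 to 9.30 CPM in the others. Rab40b had 5.65 CPM against 31.1 to 45 CPM, and Rab15 had 79.5 CPM against 196 to 288 CPM. The difference of Rab37 between PICK1i and saline in hippocampus, log2 2.27 with all libraries (adjusted p = 0.956 in edgeR), was 0.35 without it, and that of PSD-95i against PICK1i went from -2.48 to -0.56. In PFC PICK1i replicate 6, olfactory markers reached 630 CPM against 24.4 to 32.8 CPM. There 8 of the 52 lay above and 19 below the rest, 51.9% beside 38.4% of all genes, and Rab37 had 23 CPM against 2.23 to 4.49 CPM. Its difference in PFC went from 0.62 to -0.17 without that library.

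**Figure D5:**
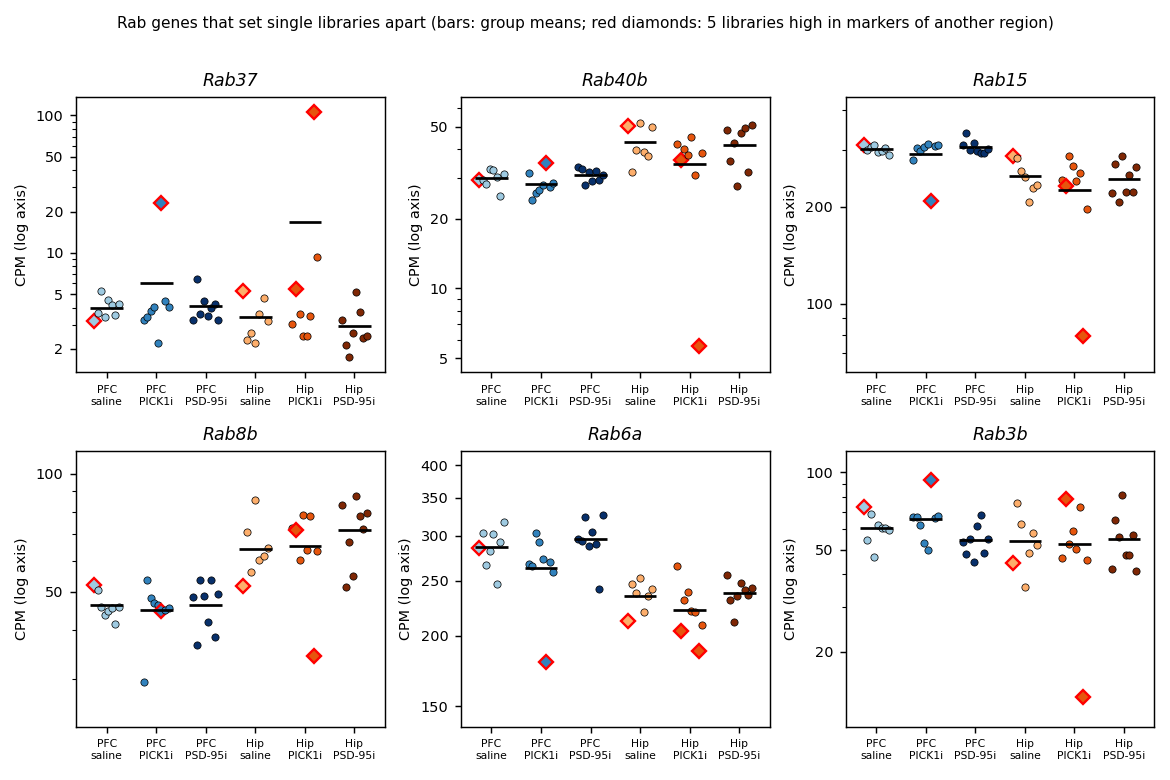
CPM of Rab37, Rab40b, Rab15, Rab8b, Rab6a and Rab3b in all 47 libraries by group, 1 panel per gene with its own log axis; points are libraries, bars are group means and red diamonds mark the 5 libraries that stood apart in regional markers. Rab37 reaches 105 CPM in hippocampal PICK1i replicate 7 and 23 CPM in PFC PICK1i replicate 6, against at most 9.30 and 4.49 CPM in the other libraries of those groups.

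The other 3 such libraries were high in striatal markers, with 492 CPM in PFC saline replicate 1 against 133 to 194 CPM, 1827 CPM in hippocampal saline replicate 1 against 61.4 to 90.5 CPM, and 1210 CPM in hippocampal PICK1i replicate 2 against 54 to 99.8 CPM. In them 32.7%, 30.8% and 15.4% of the 52 tested members lay outside the rest of their group, beside 29%, 34.9% and 25.3% of all genes. The part of neighbouring tissue in the Rab levels of these libraries was not tested. Counts of called members in the drug comparisons were 0 with and without the 5 libraries and the 4 high in choroid plexus markers.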

How the data were processed

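RNA was extracted with RNeasy kits and made into stranded poly(A) libraries (TruSeq), sequenced as 52-bp paired-end reads, per the labels' protocols. The reads were processed with bcl2fastq 2.20.0, STAR and Salmon against GRCm38, per the submitters' processing notes, with no version named for STAR or Salmon. The deposited tables hold the authors' estimated counts per gene (45706) and per transcript (109617) for 47 libraries, with no scaling between libraries. Groups and replicate numbers are those of the labels.

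Estimated counts were rounded to whole numbers and tested with edgeR 4.0.16 (quasi-likelihood F test, robust, TMM scaling, filterByExpr with a minimum count of 10 and a minimum total of 15) in R 4.3.3, with Benjamini-Hochberg adjustment over all genes and a threshold of 0.05. Each region was fitted with its 3 groups, and all 6 groups were fitted together for regional differences and interactions. Alternatives used limma 3.58.1, DESeq2 1.42.0, other scalings and filters, a replicate block, fits of only the groups compared, and fits with each library left out. TPM were computed from the transcript counts and lengths of GENCODE release M21, which held 45143 of the gene IDs and lengths for 99.48% of transcript counts. Libraries whose mean log2 score for striatal, thalamic or olfactory markers lay more than 2 above their group's median were set apart (5), and those past the same limit for choroid plexus markers (4) were left out in a separate fit. Both settings were chosen after the data were seen. The tests were checked on simulated data. Changes of 0.5 on the log2 scale were recovered in 70% of cases for PICK1i against saline in PFC. The share was 62% for PSD-95i against saline in hippocampus and 65% for the regions after saline. For transcript usage, 67.9% of changes of 1 were recovered. Smaller changes were not simulated, so the check does not cover them. Figures were drawn with matplotlib 3.10.9 in Python 3.11.15.

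Of the members, 6 have exons that overlap another gene on the same strand (Rab4b, Rab11a, Rab18, Rab26, Rab27a and Rab43), and 15 overlap one on the other strand. No source used here says whether counting used strand, so reads of such partners may not be fully told apart. Library depth sets the precision of low members most, since Rab32 had only 0.97 to 2.67 CPM after saline.

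Named are the 10 most abundant members of each region, all members called between the regions after saline, and the 2 members with the smallest p in each direction of each drug comparison and in each interaction. Also named are the members under the filter, the 5 members with the smallest p for transcript usage, and the called regulator with the largest difference in each direction of each list. Some genes, such as Rab3c and Ppm1h, are named outside these rules. The members follow from gene names alone, but the choice of this family for description, and the lists, were made with earlier results of these data known.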

Additional observations from a re-analysis of the deposited data

Results flagged for a closer look

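For the 36 members named by rule, the highest and lowest library of each of the 6 groups was examined, which makes 216 groups of values. In 27 of these a single library lay farther from its nearest neighbour than Dixon's 95% limit allows. For independent groups of normal values chance would pass about 1 in 20, or 10.8. The groups here share libraries, and some members were named for a small p in these data. The 27 can therefore not be judged by that figure. Values are CPM, with the range of the other libraries of the group after each.

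Hippocampal PICK1i replicate 7, the library high in thalamic markers, gave 9 of them. Rab37 had 105 (others 2.47 to 9.30), Rab1 209 (161 to 181), Rab3a 467 (319 to 377), Rab33a 13.7 (10.6 to 11.8) and Rab40c 42 (30.7 to 35.6), each above the rest. Below the rest were Rab15 with 79.5 (196 to 288), Rab27b with 13.1 (21.1 to 28.2), Rab40b with 5.65 (31.1 to 45) and Rab8b with 34.2 (60.2 to 78.2).

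PFC PICK1i replicate 6, the library high in olfactory markers, gave 5. Rab37 had 23 (others 2.23 to 4.49) and Rab3b 93.4 (49.7 to 67.9), above the rest, and Rab15 had 208 (279 to 313), Rab6a 180 (259 to 303) and Rab9b 14 (21.5 to 24.5), below the rest.

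The other 13 lay in libraries that did not stand apart in striatal, thalamic or olfactory markers. PFC PICK1i replicate 1 was high for Rab26 with 34.5 (others 15.3 to 24.3) and Rab3a with 570 (370 to 450) and low for Rab8b with 29.4 (44.5 to 53.7). Rab3a was also high in PFC PSD-95i replicate 8 with 584 (394 to 464). PFC PSD-95i replicate 2 was high for Rab15 with 339 (294 to 315) and Rab37 with 6.44 (3.22 to 4.44). Rab6a was low in PFC PSD-95i replicate 7 with 242 (288 to 326), Rab8a low in PFC PSD-95i replicate 3 with 39.5 (44 to 47.6), and Rab43 high in PFC saline replicate 6 with 28.3 (21.8 to 24). In hippocampus, Rab26 was high in saline replicate 2 with 44.1 (24.7 to 29.6), Rab4b high in PSD-95i replicate 4 with 38.2 (31.2 to 34.1), Rab8a high in PSD-95i replicate 2 with 51.4 (45.1 to 48.1), and Rab6b low in PSD-95i replicate 3, a library high in choroid plexus markers, with 984 (1082 to 1163).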

How the results depend on the processing

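In the 6 drug comparisons and both interactions the count of called members was 0 under every alternative run and without any single library. Transcript usage after saline also stayed at 0 under the alternatives run. The regional count after saline, 16, was 16 with DESeq2's scaling method in edgeR, 16 with a looser and 18 with a CPM filter, 20 at an adjusted p under 0.1, 17 with only these groups, 21 with limma-voom, 19 with DESeq2 and 13 without the 4 libraries high in choroid plexus markers. The count after PICK1i, 25, was 14 with only the groups compared, and the cause was not tested. After PSD-95i, 26 members became 25 to 28. With 1 library left out the regional counts ran from 13 to 19 after saline, 22 to 27 after PICK1i and 24 to 27 after PSD-95i. With the replicate number as a block they were 15, 22 and 25, and 0 in each drug comparison. Between the regions, 4 of 7 same-numbered pairs after saline, 2 of 8 after PICK1i and 2 of 8 after PSD-95i had a correlation over 0.1. The numbers were not taken as pairs. This check cannot exclude shared mice, since PFC has 8 saline libraries and hippocampus 7, and their numbers may be shifted. Other pairings were not tested, so the regional tests, and the block after saline, may miss a pairing. Of the 16 members called after saline, 12 passed in every setting and without any single library, and Rab5a, Rab32, Rab40c and Rab3a did not. With the block the adjusted p in edgeR was 0.0546 for Rab5a and 0.102 for Rab32. None of the 16 changed its direction.

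The deposited values are estimates, and how reads shared by relatives such as Rab6a and Rab6b were assigned was not examined. Animals were not identified in the labels, and regional markers differed between libraries.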
